A study of Mus musculus with 12 samples.

Results

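The genes described here are 9 glutathione transferases (Gsta3, Gsta4, Gstm1, Gstm5, Gsto1, Gstk1, Gstz1, Mgst2 and Mgst3) and the peroxidase gene Gpx8, measured in natural killer (NK) cells of mice with or without the microRNA miR-142. These 10 of the 19938 genes with a probe set of 1 gene symbol were selected on their measured values in the same arrays, so their values are a description and carry no p-value. Each of the 10 was read from 1 probe set. Of the 10 genes, 9 had a mean signal above the filter of 5.49 (log2) and entered the fit across all genes, and Gstm5 did not.

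The mice were C57BL6, aged 7 to 10 weeks and matched by age and sex, and either carried miR-142 (wild type) or lacked it (knockout). CD3- NK1.1+ cells were sorted from spleen and from bone marrow. Each genotype was studied in both tissues, which gives 4 groups with 3 arrays in each, called biological replicates in the labels. Whether arrays of different groups came from the same animals was not given in the sources used here. RNA was taken up in Trizol, amplified with the NuGEN Ovation PicoSL WTA V2 kit and hybridised to Affymetrix arrays, and each probe set's log2 signal was deposited. The labels name the genotype only as miR-142 KO and do not say how the allele was made or whether it is limited to some cells.

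Glutathione transferases join the tripeptide glutathione to reactive, mostly electrophilic molecules, such as the aldehydes left by lipid oxidation, and thereby make them easier to remove from the cell. The soluble enzymes fall into classes named alpha, mu, omega and zeta among others, the kappa enzyme sits in mitochondria and peroxisomes, and the microsomal enzymes are unrelated membrane proteins that also act in leukotriene synthesis. Gpx8 belongs to the glutathione peroxidase family, is anchored in the membrane of the endoplasmic reticulum and removes hydrogen peroxide formed there during protein folding. Several transferase genes are known targets of NRF2, a transcription factor that binds the antioxidant response element together with a small MAF protein.

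The deleted microRNA gives 2 mature strands, shown because the genotypes differ in them. They are written 5′ to 3′ as RefSeq lists them on build GRCm38.p6, with the seed (bases 2 to 8, the stretch that pairs with a target) in capitals. They lie on the plus strand at chr11:87756867-87756887 and chr11:87756903-87756925.
mmu-miR-142a-5p: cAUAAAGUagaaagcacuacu
mmu-miR-142a-3p: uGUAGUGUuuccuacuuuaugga

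RefSeq promoter windows, running from 250 bases before to 50 bases after a gene's start, were matched for 9 of the 10 genes, all but Gsta4, with 11 windows in all, 2 each for Gstm1 and Gstz1. They were searched on both strands for TGACNNNGC, the core of the antioxidant response element, and for TGANTCA, an AP-1 type element that can share bases with it. TGACNNNGC was present in 2 of the 11 windows, those of Gsta3 and Gstm5, and in 12.4% of the 32851 RefSeq windows of the same length. TGANTCA was present in 2 of the 11, those of Gstm5 and Mgst2, and in 7.81% of all windows. A match is a string of letters and not a measured binding site. The windows of Gsta3 and Gstm1 (the first of its 2) are shown because both genes were higher in knockout cells of both tissues, and that of Gstm5 because it held both motifs while its signal stayed low. They are written 5′ to 3′ on the gene's own strand, from chr1:21240335-21240634 (plus strand), chr3:108017924-108018223 (minus strand) and chr3:107895604-107895903 (plus strand) of GRCm38.p6, with motif matches in capitals.
Gsta3: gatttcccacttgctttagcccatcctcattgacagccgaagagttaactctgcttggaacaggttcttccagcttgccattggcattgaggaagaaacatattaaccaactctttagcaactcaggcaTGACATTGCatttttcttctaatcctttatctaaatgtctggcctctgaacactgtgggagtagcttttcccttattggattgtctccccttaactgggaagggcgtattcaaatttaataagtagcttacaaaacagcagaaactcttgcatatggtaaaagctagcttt
Gstm1: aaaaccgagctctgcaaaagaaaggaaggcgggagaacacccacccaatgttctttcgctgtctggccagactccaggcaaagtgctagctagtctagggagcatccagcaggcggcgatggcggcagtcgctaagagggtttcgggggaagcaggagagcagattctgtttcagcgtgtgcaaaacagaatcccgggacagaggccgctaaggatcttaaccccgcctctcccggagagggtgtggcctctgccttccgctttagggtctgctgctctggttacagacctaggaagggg
Gstm5: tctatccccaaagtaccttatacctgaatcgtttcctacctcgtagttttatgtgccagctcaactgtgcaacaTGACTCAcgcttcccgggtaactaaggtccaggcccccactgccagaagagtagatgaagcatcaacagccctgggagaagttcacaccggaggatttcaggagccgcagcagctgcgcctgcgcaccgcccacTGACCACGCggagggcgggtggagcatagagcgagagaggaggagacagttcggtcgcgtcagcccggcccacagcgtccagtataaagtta

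The samples matched their labels. The Mir142 probe set read 6.77 to 8.25 (log2) over the 6 wild type arrays and 4.05 to 4.70 over the 6 knockout arrays. The NK receptor gene Ncr1 lay between 11.53 and 12.11 in all 12 arrays, and all 16 measured markers of the NK list were above the filter. The NK markers were not all alike between genotypes. Over both tissues 4 of the 16 were called higher in knockout and 1 lower, with log2 differences of -0.725 to 1.222. This is 31.2% called, beside 19.1% of all genes. Correlations between arrays were 0.970 to 0.984 within groups and 0.961 to 0.978 between them. The array numbers of the labels form 2 runs, of 7 and 5, with no knockout bone marrow array in the second, and the run was a covariate of the fit. Markers of other cells differed between groups. The mean log2 level of 16 granulocyte markers was 6.60 to 6.84 in wild type bone marrow, 5.57 to 6.14 in knockout bone marrow, 5.10 to 5.52 in wild type spleen and 5.47 to 5.91 in knockout spleen, with 7 of the 16 (Cxcr2, Csf3r, Ly6g, Ltf, Mmp8, Mmp9 and Chil3) below the filter. That of 12 dendritic cell markers was 5.65 to 5.90 in wild type arrays and 6.12 to 6.31 in knockout arrays, with Flt3, Siglech, Xcr1, Clec9a and Cd209a below the filter and 4 of the 7 tested called higher in knockout spleen. That of 9 T cell markers was 6.88 to 7.05 in wild type bone marrow and 6.24 to 6.58 in the other groups, with Cd4 and Cd8b1 below the filter and 3 of the 7 tested called lower in knockout bone marrow. That of 14 monocyte and macrophage markers was 6.07 to 6.16 in wild type and 5.71 to 6.04 in knockout spleen, with 7 below the filter and 2 of the other 7 called lower there. That of 5 erythroid markers was 5.44 to 5.59 in wild type and 5.81 to 5.88 in knockout spleen, and 5.69 to 6.10 and 5.49 to 5.60 in bone marrow, with Car1 called higher and lower, respectively. That of 10 stromal and endothelial markers was 5.39 to 5.49 in wild type and 5.53 to 5.68 in knockout arrays, with 6 below the filter and Pecam1 as the 1 marker called. Of all genes tested 9.11% were called in spleen and 8.65% in bone marrow. The part of these cells in the results below was not tested. Values with the granulocyte level as a covariate are given, a setting chosen after seeing the data. Every wild type bone marrow array had a higher granulocyte level than every array of the other groups, so this covariate overlaps with group. A call lost with it can thus reflect lower precision, and it does not show the part of granulocytes.

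The clearest pattern was in the alpha class. Gsta4, whose enzyme is known for joining glutathione to 4-hydroxynonenal and related products of lipid oxidation, was low in every wild type array and higher in every knockout array. The log2 signal of Gsta4 was 5.45, 5.58 and 4.96 in wild type spleen and 8.14, 8.42 and 7.78 in knockout spleen. In bone marrow it was 5.30, 5.70 and 5.13 in wild type and 10.23, 9.41 and 9.82 in knockout. The 6 wild type arrays thus lay between 4.96 and 5.70, around the filter value, and the lowest knockout array of either tissue lay more than 2 log2 units above the highest of them. The fitted log2 difference, knockout minus wild type, was 2.78 ± 0.25 (SE) in spleen, a 6.86-fold difference (95% interval 4.67 to 10.1, unadjusted like all intervals here). In bone marrow it was 4.45 ± 0.28, or 21.9-fold (14.3 to 33.5), which was the largest difference in either direction among the 11963 genes tested in that tissue. Because the wild type signal was near the dim end of the array, where such signals are compressed, the fold may be understated. Within the spleen arrays of the first run (2 wild type, 1 knockout) and second run (1 wild type, 2 knockout) the difference was 2.27 and 3.32. Within the first run it was 4.52 in bone marrow, from 1 wild type and 3 knockout arrays. These counts hold for all genes below, so each within-run value rests on 1 array on 1 side. With the granulocyte level as a covariate the fitted difference of Gsta4 was 2.29 in spleen and 5.41 in bone marrow. In bulk sorted samples, a change in RNA per cell and a change in the share of cells that make it cannot be told apart, here and below.

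Gsta3, the other alpha class gene with a probe set of its own, encodes an enzyme that in the mouse detoxifies the aflatoxin epoxide. Its log2 signal was 7.02, 7.11 and 7.11 in wild type spleen and 9.01, 8.71 and 8.37 in knockout spleen. In bone marrow it was 6.23, 5.88 and 6.06 in wild type and 8.25, 8.64 and 8.21 in knockout. The genotypes did not overlap in either tissue, and wild type spleen lay above wild type bone marrow. The knockout minus wild type difference of Gsta3 was 1.58 ± 0.17 in spleen, or 3.00-fold (2.31 to 3.90), and 2.37 ± 0.19 in bone marrow, or 5.18-fold (3.88 to 6.92). Knockout spleen and knockout bone marrow overlapped, with a difference, bone marrow minus spleen, of -0.27 ± 0.19. Within runs the spleen differences were 1.30 and 1.75 and the bone marrow difference of the first run 2.14. With the granulocyte level as a covariate the values were 1.88 in spleen and 1.80 in bone marrow. The alpha class genes Gsta1 and Gsta2 had no probe set of their own. Whether the probes of Gsta3 and Gsta4 read transcripts of other alpha genes was not tested.

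**Figure D1:**
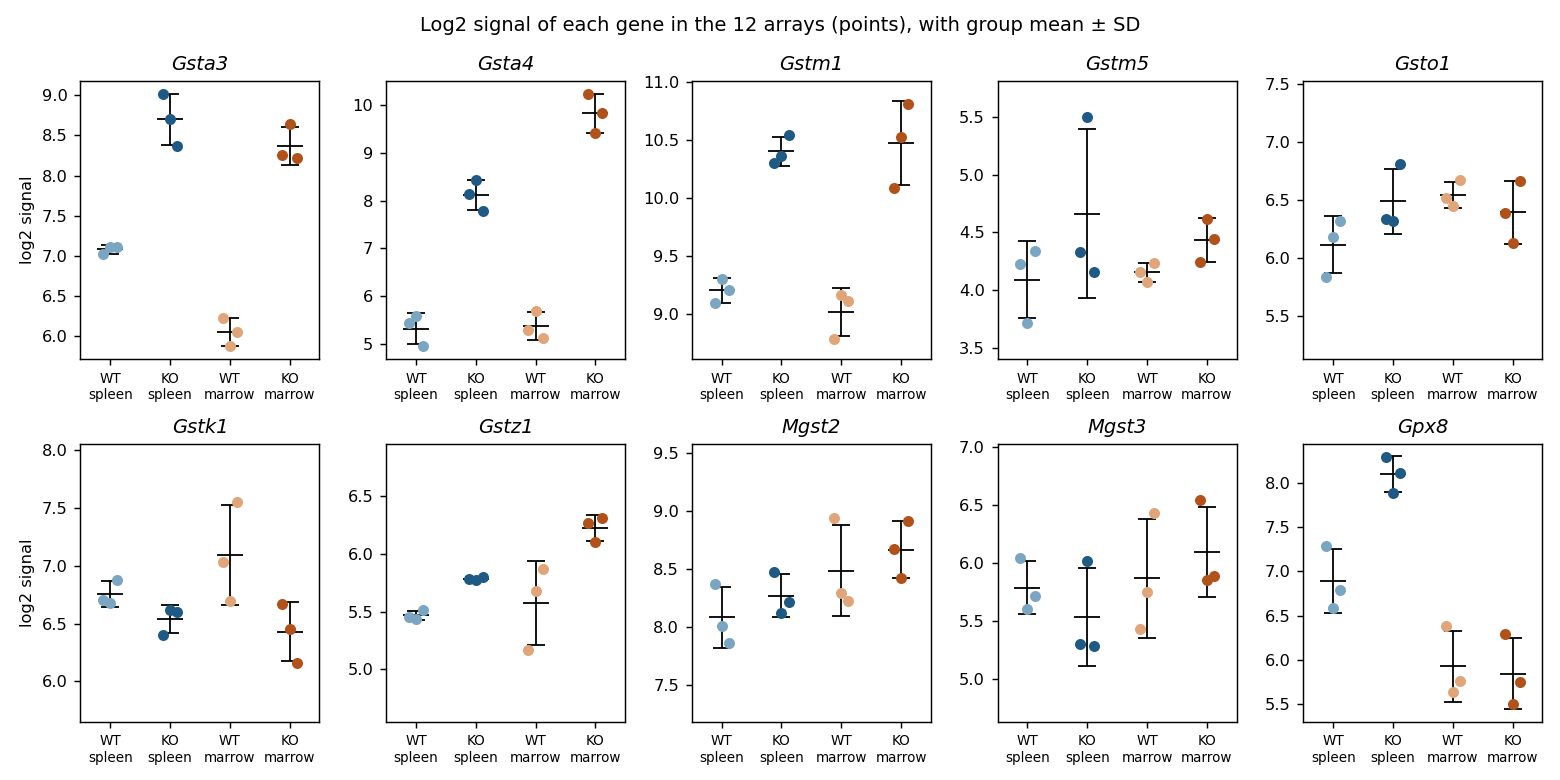
Log2 signal (y axis, on a scale of its own for each gene) of the 10 genes in the 12 arrays, by group (x axis: WT wild type, KO knockout). Points are arrays, long bars group means and whiskers ± SD of 3 arrays. Gsta4, Gsta3 and Gstm1 are higher in knockout cells of both tissues, Gpx8 in spleen.

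In the mu class, Gstm1 was the member with a clear difference in both tissues. Gstm1 is a main mu enzyme of mouse liver with broad activity towards electrophiles. Its log2 signal was 9.09, 9.30 and 9.21 in wild type spleen and 10.30, 10.36 and 10.54 in knockout spleen. In bone marrow it was 8.78, 9.16 and 9.11 in wild type and 10.09, 10.52 and 10.81 in knockout. Every knockout array was above every wild type array of either tissue. The differences were 1.18 ± 0.18 in spleen, or 2.27-fold (1.73 to 2.97), and 1.49 ± 0.20 in bone marrow, or 2.82-fold (2.09 to 3.80). Within runs they were 1.34 and 1.12 in spleen and 1.70 in bone marrow. With the granulocyte level as a covariate the bone marrow difference was 1.44 and no longer passed the threshold of the fit.

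Gstm5, a mu class gene best known from brain and testis, had signals of 3.72 to 5.50 (log2) over the 12 arrays, and only knockout spleen array 2 exceeded 5. Its values were 4.23, 3.72 and 4.34 in wild type spleen, 4.33, 5.50 and 4.16 in knockout spleen, 4.16, 4.07 and 4.23 in wild type bone marrow and 4.25, 4.62 and 4.45 in knockout bone marrow. The spleen groups overlapped, and the bone marrow groups were barely apart. In a fit without the filter the differences were 0.45 ± 0.27 and 0.53 ± 0.29, with intervals that include 0. At signals this low the array gives little more than an upper bound.

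The mu genes lie side by side on chromosome 3, in the order Gstm5, Gstm7, Gstm6, Gstm3, Gstm2, Gstm1 and Gstm4, and 4 of these 7 passed the filter. Besides Gstm1, 2 of the tested mu genes rose in knockout cells. Gstm3 rose by 1.02 ± 0.16 in spleen (limma adjusted p = 0.00205) and by 1.03 ± 0.18 in bone marrow (limma adjusted p = 0.00413), with wild type arrays at 5.51 to 5.81 and knockout arrays at 6.46 to 7.07. Gstm4 rose in spleen by 0.78 ± 0.15 (limma adjusted p = 0.00623) and differed by 0.11 ± 0.17 in bone marrow (limma adjusted p = 0.719). The bone marrow arrays of Gstm4 did not overlap, with 6.22 to 6.53 in wild type and 6.60 to 6.77 in knockout. Arrays did not overlap there for 34.2% of all genes tested. The difference between the 2 effects of Gstm4, -0.67 ± 0.24, did not pass (limma adjusted p = 0.423). Gstm7, which lies between Gstm5 and Gstm6, differed by 0.08 ± 0.16 and 0.14 ± 0.18 (limma adjusted p = 0.847 and 0.683). Gstm2, between Gstm3 and Gstm1, was below the filter and not tested, with fitted differences of 0.33 ± 0.13 (95% interval 0.04 to 0.62) and 0.06 ± 0.15 (-0.26 to 0.38). With the granulocyte level as a covariate Gstm3 was at 0.96 and 1.15 and no longer passed in either tissue (limma adjusted p = 0.0552 and 0.247), and Gstm4 was at 0.68 in spleen and did not pass (limma adjusted p = 0.137). Mu genes are similar in sequence, and whether their probes read each other's transcripts was not tested.

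**Figure D2:**
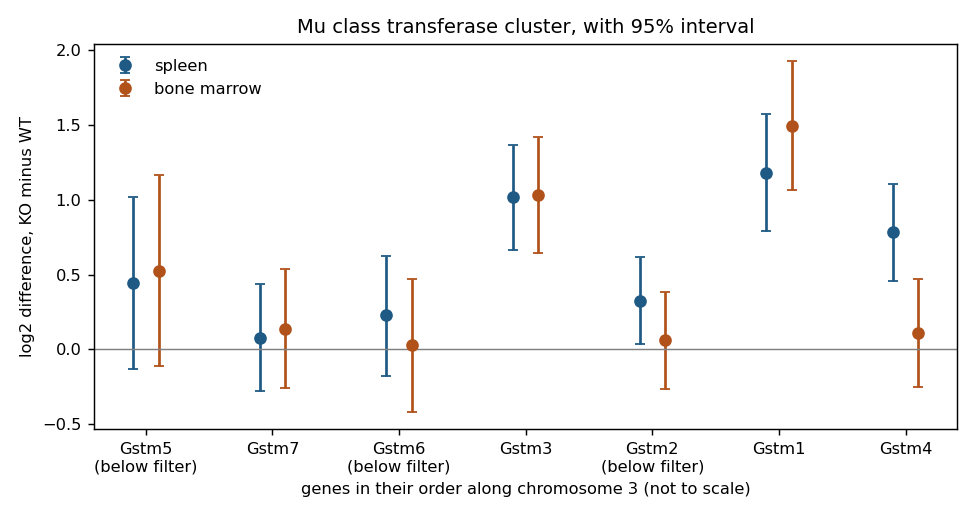
Log2 difference, knockout minus wild type (y axis), of the 7 mu class genes in their order along chromosome 3 (x axis, not to scale), in spleen and bone marrow. Points are fitted differences and whiskers 95% intervals. Gstm3 and Gstm1 lie near or above 1 in both tissues, and Gstm7 lies near 0 in both.

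The omega, zeta and kappa enzymes showed smaller differences. Gstz1, the maleylacetoacetate isomerase of tyrosine breakdown, read 5.45, 5.43 and 5.51 (log2) in wild type spleen and 5.78, 5.77 and 5.80 in knockout spleen. In bone marrow Gstz1 read 5.17, 5.68 and 5.87 in wild type and 6.26, 6.10 and 6.31 in knockout. The genotypes did not overlap in either tissue, with 3 closely spaced arrays in each spleen group. The difference was 0.24 ± 0.14 in spleen and 0.80 ± 0.15 in bone marrow, and only the latter passed the threshold of the fit. The bone marrow value rests in part on wild type array 1, the lowest of its group: without it the difference was 0.47 and did not pass. It was 0.65 with the bone marrow groups fitted alone and 1.06 with the granulocyte level as a covariate, and did not pass in either.

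Gstk1, the kappa enzyme, had differences of the opposite sign. Its log2 signal was 6.70, 6.68 and 6.88 in wild type spleen and 6.40, 6.62 and 6.60 in knockout spleen, and 7.03, 6.69 and 7.55 in wild type bone marrow and 6.67, 6.46 and 6.16 in knockout bone marrow. Every knockout array lay below every wild type array of its tissue, by a narrow margin in both. The differences of -0.23 ± 0.20 and -0.62 ± 0.22, and that of -0.43 ± 0.14 over both tissues, did not pass the threshold. Without wild type bone marrow array 2 the difference in bone marrow was -0.77 and passed, as did -0.52 over both tissues. Without knockout bone marrow array 1 the difference over both tissues was -0.49 and passed. It also passed with the filter at the 60th percentile, without the number run and with a trended, robust variance model, 5 of 21 settings in all, and in bone marrow the difference without the number run, -0.66, passed.

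Gsto1, an omega enzyme that reduces dehydroascorbate and modified thiols, overlapped between genotypes in both tissues. Its log2 signal ranged from 5.84 to 6.32 in wild type spleen, 6.31 to 6.81 in knockout spleen, 6.45 to 6.67 in wild type bone marrow and 6.13 to 6.66 in knockout bone marrow. The differences were 0.39 ± 0.19 (95% interval -0.01 to 0.80) in spleen and -0.18 ± 0.21 (-0.63 to 0.27) in bone marrow. The spleen value rested on the first run, with 0.81 there and 0.01 in the second, and was 0.10 without knockout spleen array 3.

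The microsomal enzymes also overlapped between genotypes. Mgst2, which can make leukotriene C4, ranged from 7.86 to 8.94 (log2) over the 12 arrays and differed by 0.29 ± 0.19 (-0.11 to 0.70) in spleen and -0.03 ± 0.21 (-0.48 to 0.42) in bone marrow. Mgst3, which has glutathione transferase and peroxidase activity, ranged from 5.28 to 6.54 and differed by -0.36 ± 0.27 (-0.95 to 0.24) and 0.43 ± 0.30 (-0.23 to 1.09). The intervals leave room for differences of up to about 1 log2 unit in Mgst3, so similar levels were not shown.

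For Gpx8 the genotypes were apart in spleen and overlapped in bone marrow. Its log2 signal was 7.29, 6.58 and 6.79 in wild type spleen and 8.29, 7.89 and 8.11 in knockout spleen. In bone marrow it was 6.38, 5.64 and 5.77 in wild type and 6.29, 5.50 and 5.75 in knockout. Every knockout spleen array was above every other array, and the bone marrow groups covered nearly the same range. The bone marrow signals lay near the dim end of the array, and 3 of them were below the median of their array. Signals there are compressed, so similar levels in bone marrow were not shown. The difference of Gpx8 was 1.30 ± 0.24 in spleen, or 2.46-fold (1.71 to 3.54), and -0.27 ± 0.27 (-0.85 to 0.32) in bone marrow. Within runs the spleen differences were 1.17 and 1.30. The bone marrow difference of the first run was -0.53, set against wild type array 1 alone, the highest of its group. With the granulocyte level as a covariate the spleen difference was 1.13 and no longer passed the threshold. Over both tissues the mean difference of 0.52 ± 0.17 passed, but it averages unlike values and was lost under 11 of 21 other settings, 8 of which left out 1 array (wild type spleen 2 or 3, knockout spleen 1 or 2, knockout bone marrow 1 or 3, wild type bone marrow 2 or 3) and gave 0.39 to 0.55.

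**Figure D3:**
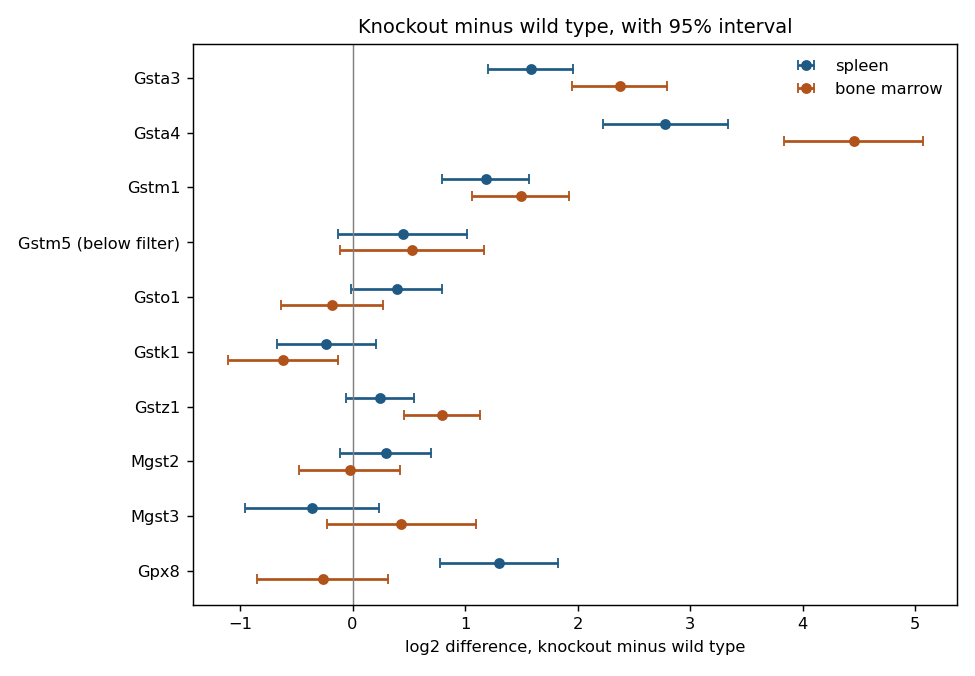
Log2 difference, knockout minus wild type (x axis), of the 10 genes (y axis) in spleen and bone marrow. Points are fitted differences and whiskers 95% intervals, and Gstm5 comes from the fit without the filter. The intervals of Gsta3, Gsta4 and Gstm1 lie above 0 in both tissues, that of Gpx8 in spleen and that of Gstz1 in bone marrow, and that of Gstk1 lies below 0 in bone marrow.

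Counted together, 4 of the 9 tested genes were called higher in knockout spleen (Gsta3, Gsta4, Gstm1 and Gpx8) and 0 lower, at a Benjamini-Hochberg adjusted p under 0.05 over all 11963 genes. Of all genes tested in that tissue 9.11% were called, 5.48% higher and 3.63% lower. In bone marrow 4 of the 9 were called higher (Gsta3, Gsta4, Gstm1 and Gstz1) and 0 lower, where 8.65% of all genes were called, 3.92% higher and 4.73% lower. Over both tissues 5 of the 9 were called higher and 0 lower, where 19.1% of all genes were called, 8.81% higher and 10.3% lower. The 9 had a median difference of 0.39 (spleen), 0.43 (bone marrow) and 0.52 (both tissues), and that of all genes tested -0.01 in each. Since the 10 genes were selected on the values of these 4 groups, nothing is read from their shares or ranks. This holds for the comparisons between tissues below as well. All 3 knockout arrays lay on 1 side of the wild type arrays for 6 of the 9 tested genes in spleen, 5 higher and Gstk1 lower, against 28% of all genes tested. In bone marrow this was so for 5 of the 9, with Gstk1 again the lower one, against 34.2%, and also for Gstm5, which was not tested.

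**Figure D4:**
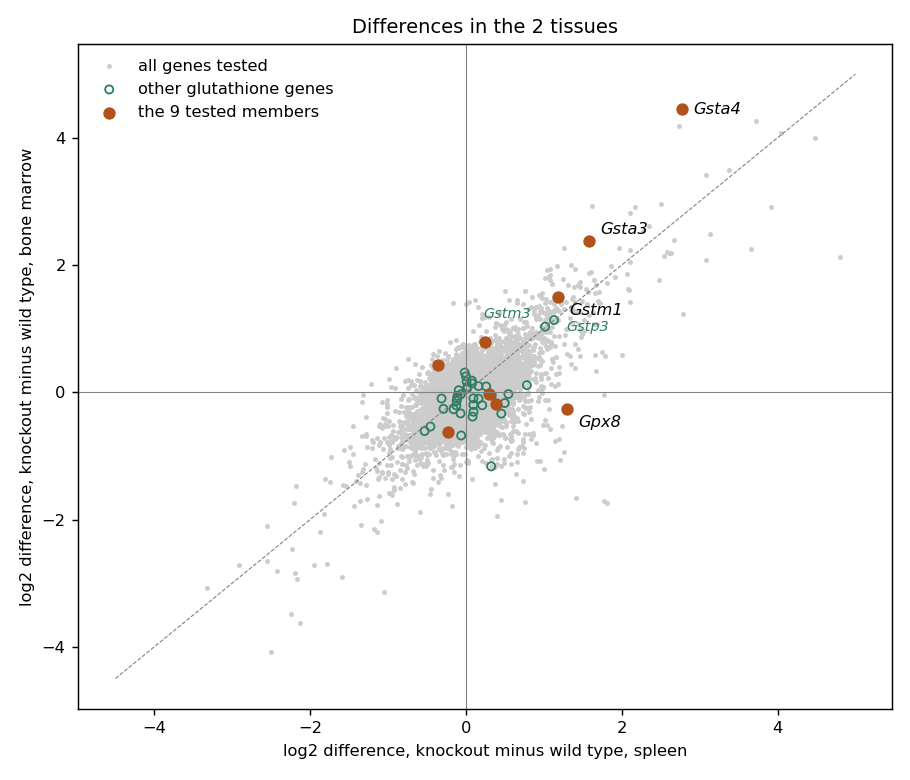
Log2 difference, knockout minus wild type, in spleen (x axis) against bone marrow (y axis) for the 11963 genes tested (grey), the 9 tested genes described here (filled) and the 36 other tested genes of the glutathione pathway (open). The dashed line marks equal differences. Gsta4 has the highest value of all genes on the bone marrow axis, and Gpx8 lies right of the line, below 0 in bone marrow.

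The effect of the knockout was then compared between tissues. The effect in bone marrow less that in spleen was 1.67 ± 0.40 for Gsta4, -1.57 ± 0.38 for Gpx8, 0.79 ± 0.28 for Gsta3 and 0.55 ± 0.22 for Gstz1. The unadjusted 95% intervals of these 4 exclude 0, but in limma 0 of the 9 genes were called in this comparison, where 1 of 11963 genes, or 0.00836%, was called. The value of Gsta3 was 0.39 without knockout spleen array 3, 1.14 without wild type bone marrow array 1 and -0.08 with the granulocyte covariate. That of Gstz1 was 0.16 without wild type bone marrow array 1, 0.34 without the number run and 0.95 with the granulocyte covariate. The value of Gsta4 was the highest of all genes tested. Leaving out 1 array gave 1.19 (without knockout spleen array 3) to 2.25 (without wild type spleen array 3), and the value was 3.12 with the granulocyte level as a covariate. That of Gpx8 ranged from -1.83 to -1.07 over all settings, and passed under 1 of them.

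Within wild type, the log2 difference of Gsta3, bone marrow minus spleen, was -1.06 ± 0.17, which passed the threshold, and 1 of the 9 genes was thus called against 5.37% of all genes. Without wild type spleen array 3 the difference was -1.09 and did not pass, and with the granulocyte level as a covariate it was -0.17. Gpx8 was at -0.87 ± 0.24 in the same comparison and was not called, although its arrays did not overlap. It passed under 5 of 21 other settings. These were without wild type spleen array 2 (-1.05) or knockout bone marrow array 1 (-0.87), and with the filter at the 60th percentile (-0.87). The others were without the number run (-0.96) and with the replicate number as a block (-0.93). Arrays did not overlap for 3 of the 9 tested genes (Gsta3, Gsto1 and Gpx8), against 31.6% of all genes tested.

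Within knockout, the tissues differed most for Gpx8. The log2 difference, bone marrow minus spleen, was -2.43 ± 0.27, or 5.40-fold lower, the lowest value of all 11963 genes in this comparison. Because the bone marrow signal of Gpx8 was near the dim end of the array, this fold may be understated. Gsta4 was higher in knockout bone marrow than in knockout spleen by 1.72 ± 0.28, or 3.28-fold (2.15 to 5.03), whereas its wild type groups differed by 0.04 ± 0.25. Both passed the threshold, so 2 of the 9 genes were called, against 0.318% of all genes, a share open to the selection of the genes. Arrays did not overlap for 3 of the 9 (Gsta4, Gstz1 and Gpx8), against 16.3%. Without knockout spleen array 3 the values were -2.65 for Gpx8 and 1.32 for Gsta4, and neither passed. That of Gsta4 also did not pass without knockout spleen array 1 (1.72), knockout bone marrow array 1 (1.51) or 3 (1.71), wild type spleen array 1 (1.74) or wild type bone marrow array 1 (1.68). The knockout arrays of these comparisons also enter those between genotypes.

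The other genes of the glutathione pathway were counted next. This list and those below were chosen with earlier results of these data known, so their shares are a description. Of 58 listed genes (other transferases, other peroxidases, and genes of glutathione synthesis, recycling and export), 52 were measured and 36 tested. In spleen 6 rose and 0 fell, or 16.7% called beside 9.11% of all genes. In bone marrow 2 rose and 1 fell, or 8.33% beside 8.65%, and over both tissues 3 rose and 2 fell, or 13.9% beside 19.1%. Their median differences were 0.05, -0.10 and 0.00, near those of all genes. Without knockout spleen array 3 the spleen count was 3, and without wild type bone marrow array 1 the bone marrow count was 0. With the granulocyte level as a covariate, limma called 0 of the 36 in either single tissue, with 8 in spleen and 4 in bone marrow at an unadjusted p under 0.05, and 5 over both tissues. The single-tissue calls of these 36 genes are therefore all lost with that covariate. For the genes of the other lists and the neighbours below, values with it are not given.

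Among the other transferases, 10 were tested, and 3 rose in spleen, 2 rose and 1 fell in bone marrow, and 3 rose over both tissues. That is 30% called in each comparison, beside 9.11%, 8.65% and 19.1% of all genes. Besides Gstm3 and Gstm4 the called genes included Gstp3, a pi class gene on chromosome 19. Gstp3 rose by 1.13 ± 0.17 in spleen (limma adjusted p = 0.00152) and by 1.14 ± 0.19 in bone marrow (limma adjusted p = 0.00335), with wild type arrays at 5.58 to 6.02 and 6.48 to 7.02 and knockout arrays at 6.81 to 6.96 and 7.82 to 8.36. With the granulocyte covariate it was at 0.90 and 1.58 (limma adjusted p = 0.0644 and 0.101). The gene that fell in bone marrow was Alox5ap, a membrane protein of leukotriene synthesis from the microsomal family, by 1.16 ± 0.23 on the log2 scale (limma adjusted p = 0.00884), and it is named because it was the only one. Alox5ap is also expressed by granulocytes. In bone marrow 4 of the 9 tested granulocyte markers were called lower, where 4.73% of all genes were. The part of granulocytes in the fall of Alox5ap was not tested. With the granulocyte covariate the bone marrow difference of Alox5ap was -0.48.

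Of the 3 other peroxidases tested, Gpx1, the main cytosolic glutathione peroxidase, rose in spleen by 0.50 ± 0.11 (limma adjusted p = 0.0129) and was at -0.17 ± 0.12 in bone marrow (limma adjusted p = 0.418). The 3 differences in bone marrow lay between -0.20 and -0.10 and did not pass. Of 23 tested genes of glutathione synthesis, recycling and export, 2 rose in spleen, or 8.7% called beside 9.11% of all genes. The spleen genes were Glrx5, a mitochondrial glutaredoxin, at 0.45 ± 0.13 (limma adjusted p = 0.0477) and Lap3, an aminopeptidase that splits the breakdown product of glutathione, at 0.54 ± 0.15 (limma adjusted p = 0.0456). Over both tissues Chac2, which degrades glutathione, fell by 0.57 ± 0.15 (limma adjusted p = 0.0222) and Abcc4, an exporter that carries glutathione conjugates, fell by 0.50 ± 0.10 (limma adjusted p = 0.00516). With the granulocyte covariate Chac2 was at -0.63 and did not pass (limma adjusted p = 0.0548). The genes of the synthesis enzymes themselves, Gclc, Gclm and Gss, were at -0.11, 0.16 and 0.02 (spleen) and -0.10, 0.10 and 0.09 (bone marrow), and none of these differences passed.

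Related redox lists were counted in the same way over both tissues, where 19.1% of all genes were called. The shares called were 10% of the genes around NRF2, 5.88% of the thioredoxin and peroxiredoxin genes and 20% of the genes of oxidative folding, so each lay near or below that of all genes. Of 20 tested genes around NRF2, 2 rose and 0 fell. Maff, a small MAF protein that partners NRF2, rose by 1.26 ± 0.17 (limma adjusted p = 0.00022) and Osgin1, an oxidative stress response gene, by 0.47 ± 0.11 (limma adjusted p = 0.00964). Nfe2l2, which encodes NRF2, was at 0.15 in spleen against -0.17 in bone marrow, its inhibitor Keap1 was at 0.33 and 0.22, and neither passed. The classical NRF2 target Hmox1 was at 0.37 and -0.40 and did not pass. In bone marrow Ftl1 fell by 0.49 and Ephx1 by 0.96 (limma adjusted p = 0.0253 and 0.00735). In spleen Ftl1 was at 0.06 and Ephx1 at 0.57, and neither passed (limma adjusted p = 0.827 and 0.0509). Over both tissues they were at -0.22 and -0.19 and did not pass.

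Of 17 tested thioredoxin and peroxiredoxin genes, 1 fell over both tissues. This was Prdx4, the peroxiredoxin of the endoplasmic reticulum, at -0.89 ± 0.17 (limma adjusted p = 0.00275), with -0.36 ± 0.24 in spleen and -1.42 ± 0.27 in bone marrow. Prdx4 removes the same peroxide as Gpx8, and in spleen, where Gpx8 was higher in knockout cells, Prdx4 did not pass (limma adjusted p = 0.44). Of 15 tested genes of oxidative protein folding, 2 rose and 1 fell. The disulfide isomerase genes Pdia3 and P4hb rose by 0.43 ± 0.07 and 0.41 ± 0.07 (limma adjusted p = 0.00104 and 0.00142), and Erp44, which retains folding enzymes in the early secretory pathway, fell by 0.34 ± 0.08 on the log2 scale (limma adjusted p = 0.0102).

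A list of genes of tissue-resident type 1 innate lymphoid cells was counted because such cells share the CD3- NK1.1+ gate. Of its 16 tested genes 11 rose and 2 fell over both tissues, beside the 8.81% of all genes called higher and 10.3% called lower. The list was chosen with earlier results of these data known, so its share and p-values are a description and nothing is read from them. The granzyme gene Gzmc rose by 4.24 ± 0.24, the integrin gene Itga1 by 3.44 ± 0.15, the phosphatase gene Inpp4b by 3.41 ± 0.13 and the receptor gene Gpr34 by 3.25 ± 0.15 (limma adjusted p = 2.97e-07, 5e-08, 1.96e-08 and 5.74e-08). The 2 that fell were the interleukin 7 receptor gene Il7r, by 0.78 ± 0.23, and the lymphotoxin gene Ltb, by 0.45 ± 0.11 (limma adjusted p = 0.0357 and 0.0107). Cd69, Rgs2 and Il2ra were at -0.18, 0.07 and 0.51 and did not pass. These shifts stood beside those of Gsta4, Gsta3 and Gstm1 in the same arrays, and the part of a changed mix of cells in them was not tested.

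Of the 20 genes next to the members on their chromosomes 14 were tested. Of these, 2 were called in spleen and 3 in bone marrow, Gstm4 (above) and those named here. Of all genes tested 9.11% and 8.65% were called. Gsta3 is followed by Khdc1a and preceded by Tmem14a. Khdc1a, of a family of similar copies, rose by 0.66 ± 0.17 in spleen and, in bone marrow, by 1.41 ± 0.19 (limma adjusted p = 0.0317 and 0.000765). Tmem14a, a membrane protein gene, rose by 1.49 ± 0.32 in bone marrow (limma adjusted p = 0.0141) and was at 0.85 ± 0.29 in spleen (limma adjusted p = 0.0975). Next to Gsta4, Cilk1, a kinase gene of cilia, rose by 0.71 ± 0.19 in bone marrow (limma adjusted p = 0.0359) and was at 0.24 ± 0.17 in spleen (limma adjusted p = 0.47). Neither neighbour of Gpx8, Cdc20b and the granzyme gene Gzma, passed in either tissue, with differences of -0.08 and 0.17 (spleen) and -0.62 and 0.29 (bone marrow). Genes on both sides of Gsta3 thus rose in bone marrow, where Gsta3 was higher as well, and a link between them was not tested.

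The genes outside the family whose signal followed Gsta4 most closely over the 12 arrays were Nckap1 (Pearson r = 0.986), Ttc3 (0.982), Pecam1 (0.973), Rbpj (0.971) and Sema6d (0.97). Nckap1 is a subunit of the WAVE complex that drives actin branching, Pecam1 an adhesion receptor, Rbpj the DNA-binding partner of Notch and Sema6d a semaphorin. Sema6d came nearest in size, with differences of 2.74 in spleen and 4.19 in bone marrow beside 2.78 and 4.45 for Gsta4. For Gsta3 they were Arl15 (0.981), Gzmb (0.978), Itgax (0.969), Asb2 (0.967) and Taok1 (0.965), of which Gzmb encodes granzyme B, the main apoptosis-inducing protease of cytotoxic cells, and Itgax the integrin chain CD11c. The knockout minus wild type differences of these 5 genes were 0.51 to 1.36 in spleen and 0.59 to 1.46 in bone marrow. All 12 arrays enter both sides of each correlation and fall into the same 4 groups, so the values describe likeness of pattern and carry no test.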

How the data were processed

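The authors deposited log2 signals per probe set, made with Affymetrix Expression Console and RMA per the submitters' processing notes. Neither the versions nor the annotation release is given in the sources used here. RMA normalizes quantiles over arrays and compresses low signals. Of 35556 probe sets, 21789 had 1 symbol in the platform annotation, 1621 had several and 12146 none. Only those with 1 symbol were used, and the one with the highest mean was kept per gene. This left out 6 probe sets with several symbols, at least 1 of them a glutathione transferase or peroxidase. Members and lists were chosen with earlier results of these data known.

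Genes whose mean exceeded the 40th percentile (11963 of 19938) entered a linear model in limma 3.58.1 (R 4.3.3) with 4 group means and the number run as a covariate, with 7 residual and 4.74 prior degrees of freedom. A gene was called at a two-sided Benjamini-Hochberg adjusted p under 0.05, and the p-values measure the spread between these arrays. The run itself was called for 0 genes in limma, with 546 at an unadjusted p under 0.05. Array signals carry no depth, and 3 arrays per group limit the precision.

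The text names all 10 members, up to 4 genes of each pathway list called over both tissues by size of difference, and for Gsta4 and Gsta3 the 5 genes with the highest correlation. The other called or compared genes of the lists and the neighbours were named after their values were seen. Alternatives were other filters, scalings, covariates, variance models and probe set summaries, and leaving out each array. The fit was tested on simulated data. The planned comparison of protein sequences was not run. Promoter and microRNA sequences are from RefSeq (GRCm38.p6).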

Additional observations from a re-analysis of the deposited data

Results flagged for a closer look

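The knockout effect pointed in opposite directions in the tissues for 2 glutaredoxin genes of the pathway lists, with every knockout array above every wild type array in spleen and below in bone marrow. For Glrx2, a mitochondrial glutaredoxin, the effect in bone marrow less that in spleen was -0.41 ± 0.18 (log2, SE), from 0.21 in spleen and -0.20 in bone marrow, and did not pass (limma adjusted p = 0.518). For Glrx5 it was -0.79 ± 0.20, from 0.45 and -0.33, and did not pass either (limma adjusted p = 0.31). Over all genes tested, the genotypes did not overlap, in either direction, for 28% in spleen and 34.2% in bone marrow. The share of all genes with opposite directions was not counted, so nothing is read from these 2 genes.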

How the results depend on the processing

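The 54 member differences had 1134 alternative values, of which 1067 lay within 1 SD of the reported value, 67 moved further and 0 called ones changed sign. Gsta4, Gsta3 and Gstm1 passed in spleen and over both tissues under every setting. With the granulocyte level as a covariate, 375 genes were called in spleen in place of 1090, 70 in bone marrow in place of 1035, 0 between tissues in wild type in place of 643 and 0 in the interaction in place of 1, 2 members in bone marrow in place of 4, and 0 other glutathione pathway genes in either tissue in place of 6 and 3. The cause was not tested. Without the number run, 1590 genes were called in bone marrow, 2 in the interaction and 87 between tissues in knockout in place of 38. With a filter at the 60th percentile, which tests fewer genes, the other pathway genes called were 1 in bone marrow and 2 over both tissues in place of 5, and 0 genes were called in the interaction. Centring arrays on their medians gave 5 in the interaction and 977 between tissues in wild type, and raised the share of higher calls there from 80.7% to 92.2%. Repeated quantile normalization changed the share of higher calls in bone marrow from 45.3% to 58.7% and between tissues in wild type to 70.1%. A trended, robust variance model gave 3 in the interaction. Leaving out 1 array gave 543 to 1083 genes in spleen (lowest without wild type spleen array 3), 372 to 1002 in bone marrow (without wild type bone marrow array 1), 1677 to 2169 over both, 0 to 5 in the interaction, 83 to 704 between tissues in wild type (lowest without wild type bone marrow array 1), 1 to 38 in knockout (lowest without knockout spleen array 3), 4 members in spleen, 3 to 5 in bone marrow and 4 to 5 over both, and 3 to 6, 0 to 4 and 4 to 7 other pathway genes. Whether replicate numbers pair the samples was not settled by a check of same-numbered arrays. Of 18 such pairs, 6 had deviations correlated above 0.1 (-0.02 to 0.243), with no differently numbered pairs set beside them. With the replicate number as a block, 5 genes were called in the interaction, Gpx8 (-1.39) among them.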
